A study of Homo sapiens with 9 samples.

Results

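The 10 genes described here encode regulators of the NRF2 antioxidant response rather than its enzymes. They are NFE2L2, which encodes NRF2, its relative NFE2L1, the repressors KEAP1 and CUL3, the KEAP1-system proteins SQSTM1 and TRIM16, the small MAF partners MAFG, MAFF and MAFK, and the repressor BACH1. They were picked by symbol for this role and make up 10 of the 59452 gene symbols quantified. The choice was made with earlier results of the same contrasts known, in which SQSTM1 and TRIM16 had been among the genes that led the AT-0174 response. Their fold changes and adjusted p-values are therefore a description of these genes and not independent evidence.

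The libraries came from MDA-MB-453, a human breast cancer cell line that the labels call triple-negative, of wild-type genotype and grown in DMEM with fetal bovine serum. There were 3 groups of 3 libraries, which the study calls biological triplicates. One group was attached and received DMSO as vehicle, another was kept in forced suspension on poly-HEMA with the same vehicle, and the last was suspended and received AT-0174 at 10 µmol/L. AT-0174 blocks TDO2 and IDO1, enzymes that degrade tryptophan. The AT-0174 libraries of this line are described here from the labels, since the study's methods describe this treatment for RNA-seq of another line. All 9 cultures were collected after 48 hours. AT-0174 was given to suspended cells alone, so an effect in attached cells cannot be read from these libraries, and 1 cell line stands for all of them. In bulk RNA, fewer cells that express a gene and less RNA per cell cannot be told apart.

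NRF2 is a transcription factor that is made continuously and destroyed continuously. KEAP1 holds it and serves as the adaptor of a ubiquitin ligase built on the scaffold CUL3, and oxidants or electrophiles that modify KEAP1 cysteines let NRF2 escape. SQSTM1, also called p62, is a selective autophagy receptor that binds KEAP1 and can carry it to degradation, and TRIM16 is a ubiquitin ligase reported to act with NRF2, KEAP1 and SQSTM1 on protein aggregates. In the nucleus NRF2 pairs with a small MAF protein (MAFG, MAFF or MAFK) at the antioxidant response element, where BACH1, released by heme, competes for the same site. Because NRF2 is controlled largely at the protein level, NFE2L2 mRNA is not a direct readout of NRF2 activity. NFE2L1 encodes NRF1, which is held at the endoplasmic reticulum and, once processed, drives proteasome genes.

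Between 36649997 and 48019126 estimated counts were assigned per library. Of 12 luminal and apocrine breast markers all 12 were expressed above the filter, with a summed level of 7624 to 7732 CPM (counts scaled to a common library total) in attached cells, 8384 to 8530 in suspended vehicle cells and 8322 to 8703 with AT-0174. Of 12 markers of other cell types only CD68 and COL1A1 passed the filter. CD3E and DCN were at 0 in every library, and the list summed to 133 to 151, 114 to 116 and 110 to 116 CPM in the 3 groups. The luminal sum and the COL1A1 level moved with suspension, and their part in the results of that contrast was not tested.

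Promoter sequence was examined because several of these genes are themselves known NRF2 or MAF targets. RefSeq windows (GRCh38.p14), from 250 bases before to 50 bases after a transcript start, were held for 9 of the 10 genes, in 18 windows. Both strands were searched for TGACNNNGC, the core of the antioxidant response element, and for TGAGTCA, the core shared by AP-1 and MAF-type sites. With both strands searched a single stretch can match both strings, and 392 of 35116 windows of all genes (1.12%) held both. TGACNNNGC was found in 1 window each of KEAP1 and MAFF, against 13.3% of all windows, and TGAGTCA in 1 window of BACH1, against 4.95%. These 4 matches are the ones shown, 5′ to 3′ on the gene's strand with 10 bases on each side and the match in capitals:
KEAP1, first base 54 before the start, chr19:10502807-10502835, minus strand: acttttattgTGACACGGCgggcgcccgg
KEAP1, first base 31 before the start, motif on the opposite strand, chr19:10502784-10502812, minus strand: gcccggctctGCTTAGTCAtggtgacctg
MAFF, first base 122 before the start, motif on the opposite strand, chr22:38201862-38201890, plus strand: cttccaggggGCGGGGTCAtacgggggcg
BACH1, first base 48 before the start, chr21:29298864-29298890, plus strand: gcggaaggagTGAGTCAcctgaccgct

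The windows of NFE2L2, NFE2L1, CUL3, SQSTM1, TRIM16 and MAFG held neither string. A match is a description of the letters in this window, not a binding site, and the absence of one says only that these letters are not there. The stretches of KEAP1, MAFF and BACH1 all lie inside the annotated bounds of their genes, whose outermost starts lie further upstream.

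Per unit of transcript length, SQSTM1 was the most abundant of these mRNAs and MAFF the least. On the TPM scale (reads scaled for transcript length and library total, summed over each gene's transcripts) attached cells held 299 ± 18.1 for SQSTM1 (mean ± SD, n = 3), 196 ± 4.80 for NFE2L1 and 105 ± 2.66 for TRIM16. KEAP1 at 77.5 ± 3.85 and NFE2L2 at 74.3 ± 2.87 TPM overlapped in their library values, and CUL3 followed at 63.4 ± 4.14. The small MAF genes were far lower, with MAFK at 21.7 ± 1.06, MAFG at 11.1 ± 0.463 and MAFF at 0.839 ± 0.0252 TPM. BACH1, the repressor that competes with NRF2, stood at 5.49 ± 0.204 TPM. The order of the 10 genes by group mean was the same in all 3 groups, and within each suspended group no neighbours in this order overlapped.

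**Figure D1:**
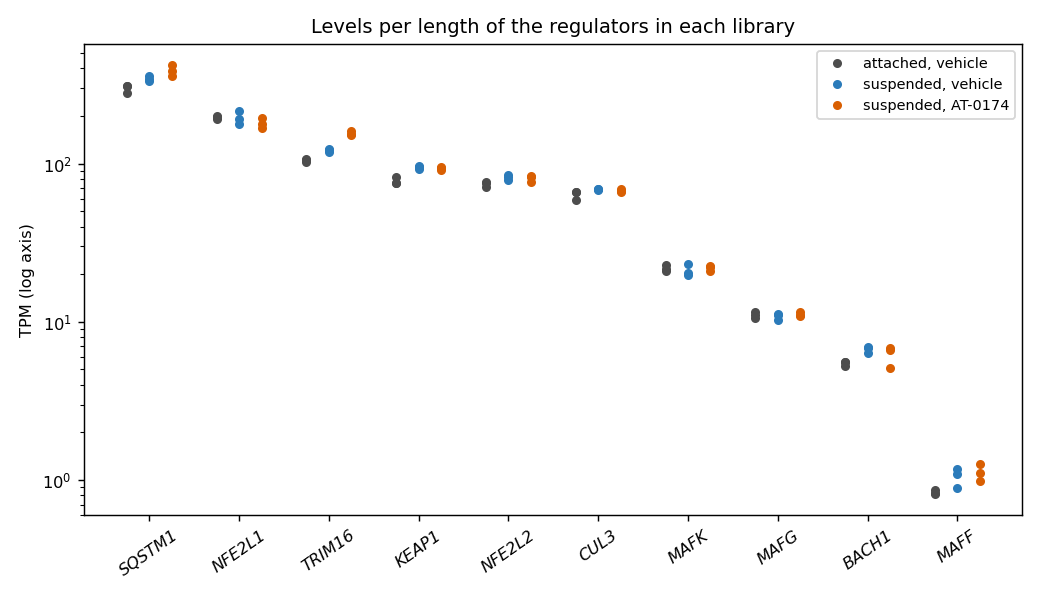
Level per length (TPM, log axis) of the 10 regulators in each of the 9 libraries, coloured by group, with genes ordered by their mean. SQSTM1 lies at 278 to 417 TPM and MAFF at 0.819 to 1.27, and KEAP1 and NFE2L2 are the neighbours whose attached libraries overlap.

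All 10 genes passed the filter on low counts and were tested with the 15528 genes of the same fit. In suspended against attached vehicle cells, 2 of the 10 rose and none fell, where 21.2% of all tested genes changed, 10.4% up and 10.8% down. With AT-0174 against vehicle in suspended cells, again 2 rose and none fell, where 0.779% of all tested genes changed, 0.522% up and 0.258% down. For suspended AT-0174 cells against attached vehicle cells the count was 3 higher and none lower, where 24% changed, 12.2% up and 11.8% down. DESeq2 and limma-voom gave the same counts in each contrast, and no regulator was lower at an unadjusted p under 0.05. The median log2 fold change of the 10 genes was 0.05, 0.04 and 0.07 in these contrasts, beside values within 0.002 of 0 for all tested genes. The first pair of contrasts shares the suspended vehicle libraries, and the third shares its libraries with both.

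**Figure D2:**
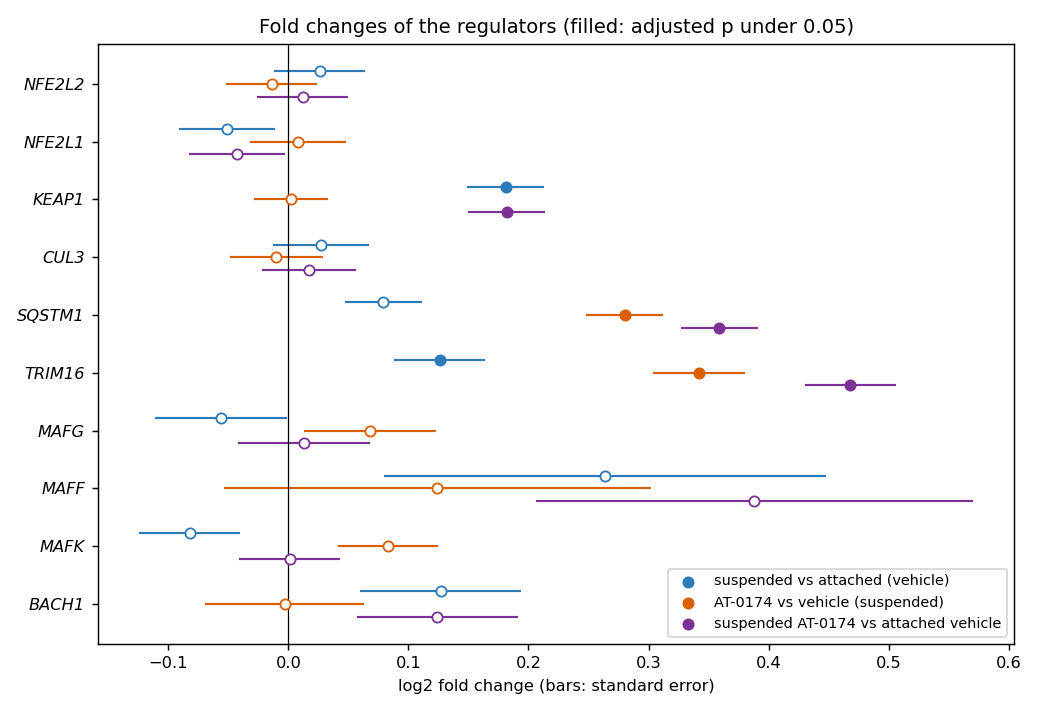
Log2 fold change of each regulator in the 3 contrasts, with bars of 1 standard error and filled symbols where the adjusted p was under 0.05. KEAP1 is filled where suspended cells are set against attached ones, SQSTM1 and TRIM16 where AT-0174 is involved, and TRIM16 also in suspension alone, while the other 7 genes carry open symbols throughout.

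NFE2L2 mRNA did not pass the test in any contrast. It measured 111, 111 and 103 CPM in the attached libraries, 110.0, 109.8 and 112 in the suspended vehicle libraries and 111, 105 and 112 with AT-0174. In CPM the groups overlapped, and the lowest library was an attached one. In TPM the attached libraries (71.0 to 76.2) lay below those of suspended vehicle (78.3 to 84.6) and AT-0174 cells (76.6 to 83.0). With counts rebuilt from TPM the log2 fold change in suspension was 0.05 (edgeR, adjusted p = 0.524). The log2 fold change was 0.03 ± 0.04 (SE) in suspension (edgeR quasi-likelihood test, adjusted p = 0.679) and -0.01 ± 0.04 with AT-0174 (adjusted p = 0.961). The gene lies at chr2:177218667-177392756 (GRCh38, as all positions here) on the minus strand, and the transcript NFE2L2-201, with a coding sequence of 605 codons, carried 76.8 to 82% of its TPM in every library.

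NFE2L1 was more abundant per length than NFE2L2 and passed in no contrast. Its 9 values were 332, 340 and 321 CPM attached, 338, 309.9 and 311 suspended with vehicle and 317, 314 and 334 with AT-0174. NFE2L1 lies at chr17:48048329-48061545, plus strand. The 3 groups overlapped, with a log2 fold change of -0.05 in suspension (adjusted p = 0.405) and 0.01 with AT-0174 (adjusted p = 0.983, edgeR). A short transcript of 477 bases without a defined coding sequence held 26.5 to 35.5% of the gene's TPM. The full-length NFE2L1-201 (742 codons) held 23.8 to 33.7% and the MANE Select transcript NFE2L1-203 (772 codons) 8.13 to 12.8%, and counts and TPM weigh transcripts of unlike length differently.

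KEAP1, the adaptor that presents NRF2 for degradation, rose when cells were suspended and did not pass the test with AT-0174. Its values were 119, 124 and 119.5 CPM in attached cells, 138, 137 and 137 in suspended vehicle cells and 139.9, 138 and 133 with AT-0174. Every suspended library lay above every attached one, and the 2 suspended groups overlapped. The rise was 1.13-fold, a log2 fold change of 0.18 ± 0.03 (adjusted p = 0.00243), rank 535 by p-value among 15528 genes. With AT-0174 the log2 fold change against suspended vehicle cells was 0.00 ± 0.03 (adjusted p = 0.996), and against attached cells it was 0.18 (adjusted p = 0.00165). KEAP1 lies at chr19:10486125-10503558, minus strand. Its transcripts KEAP1-201 and KEAP1-202 both encode 624 codons, and KEAP1-201 held 64.6 to 73.4% of the TPM in all libraries with overlapping groups.

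CUL3 (chr2:224470150-224585397, minus strand), the ligase scaffold, passed in no contrast. It read 136, 131 and 122 CPM attached, 135, 129 and 133 suspended with vehicle and 133, 132 and 129 with AT-0174. In CPM the attached libraries alone spanned the range of both suspended groups. In TPM both suspended groups (66.2 to 69.2) lay above the attached libraries (58.6 to 65.8). Over 17 alternative fits, counts rebuilt from TPM among them, the log2 fold change of CUL3 in suspension ran from -0.01 to 0.06 and none was called. Its log2 fold changes were 0.03 in suspension (adjusted p = 0.675) and -0.01 with AT-0174 (adjusted p = 0.976). Most of its TPM, 78.7 to 88.5%, was assigned to CUL3-203 (744 codons, 2701 bases) and 7.24 to 8.95% to the longer MANE Select transcript CUL3-201 (768 codons, 6756 bases).

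SQSTM1 was among the genes that rose with AT-0174. It measured 363, 349.9 and 360.4 CPM attached, 380.0, 370.5 and 383 suspended with vehicle and 475, 455 and 446 with AT-0174. All 3 AT-0174 libraries lay above all vehicle libraries, and the suspended vehicle libraries lay above the attached ones. The rise with AT-0174 was 1.215-fold, a log2 fold change of 0.28 ± 0.03 (adjusted p = 0.000727, rank 23 by p-value among 15528 genes). In suspension with vehicle the log2 fold change was 0.08 ± 0.03 and did not pass the test (adjusted p = 0.102). Against attached cells, suspended AT-0174 cells had 1.28-fold more SQSTM1 (log2 fold change 0.36, adjusted p = 1.57e-05).

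Whether SQSTM1 was called with AT-0174 depended on how reads were turned into a gene level. In TPM the AT-0174 libraries stood at 417, 386 and 360.1, the suspended vehicle libraries at 331, 344 and 359 and the attached libraries at 309, 278 and 310.2. The AT-0174 and vehicle groups then stood next to each other without overlap, 360.1 against 359 at the closest. With counts rebuilt from TPM the log2 fold change was 0.21 and the call was lost (edgeR, adjusted p = 0.311). Over all genes the calls with AT-0174 went from 121 to 35 in that fit. Only 24.1% of SQSTM1 TPM on average came from the MANE Select transcript SQSTM1-202 (440 codons). SQSTM1-201, with 356 codons, held 37.7%, the retained-intron transcript SQSTM1-206 of 808 bases 15.1% and a 274-base transcript 11.9%, and the last ranged from 7.29 to 14.1% among the AT-0174 libraries. The part of these short transcripts in the difference was not tested. SQSTM1 (chr5:179806398-179838078, plus strand) overlaps MRNIP on the opposite strand, and whether counting used strand is not given in the sources used here. MRNIP fell in suspension by 0.82 on the log2 scale (adjusted p = 0.00135) and had a log2 fold change of 0.06 with AT-0174 (adjusted p = 0.944).

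TRIM16 had the largest log2 fold change with AT-0174 of the 10 genes. Its values were 150.3, 142 and 139.9 CPM attached, 153, 160.0 and 159 suspended with vehicle and 204.5, 203 and 190.6 with AT-0174. The 3 groups were stacked without overlap, with the widest step between vehicle and AT-0174. With AT-0174 it was 1.27-fold higher (log2 fold change 0.34 ± 0.04, adjusted p = 0.000679, rank 19 by p-value). Suspension with vehicle gave 1.09-fold (log2 fold change 0.13 ± 0.04, adjusted p = 0.0355). That smaller rise lost its call without attached replicate 2 (adjusted p = 0.0998) or 3 (0.123), without suspended vehicle replicate 2 (0.107) or 3 (0.0926), and with counts rebuilt from TPM (0.0752). Suspended AT-0174 cells against attached ones gave a log2 fold change of 0.47 (adjusted p = 8.23e-06).

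Reads of TRIM16 (chr17:15627960-15684311, minus strand) can also fit TRIM16L (chr17:18722237-18735460, plus strand), a close copy that GENCODE lists as a transcribed pseudogene, so the split between both is uncertain. TRIM16L averaged 121 ± 3.20 CPM attached, 128.5 ± 3.27 suspended and 189 ± 4.26 with AT-0174 (SD, n = 3 each). It rose with AT-0174 by a log2 fold change of 0.56 (adjusted p = 2.5e-06) and did not pass in suspension (0.09, adjusted p = 0.084). When TRIM16 and TRIM16L were summed before the fit, the log2 fold change with AT-0174 was 0.44 (adjusted p = 1.42e-05) and in suspension 0.11 (adjusted p = 0.0357). The counts assigned to either locus, and their sum, therefore rose with AT-0174 by the edgeR quasi-likelihood test. Within TRIM16, the transcript TRIM16-211 (348 codons) held 36.8 to 37.2% of TPM with AT-0174, 32.4 to 35.2% in suspended vehicle cells and 27.5 to 36.6% in attached cells. TRIM16-201 (564 codons) held 34.4 to 36%, 37.5 to 43.2% and 35 to 42.6% in the same order.

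**Figure D3:**
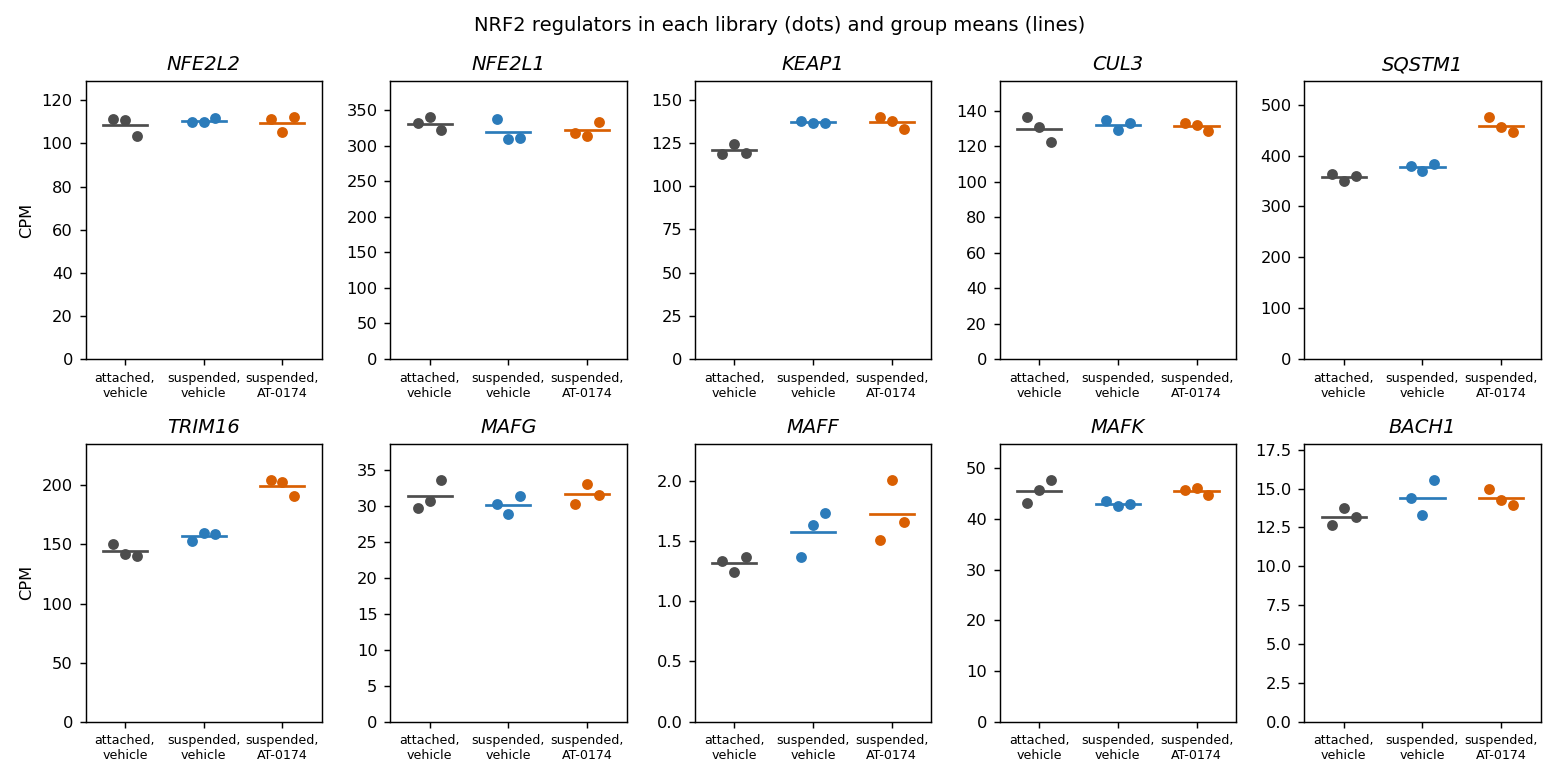
CPM of each regulator (linear axes from 0) in the 3 libraries of each group (dots), with the group mean as a line. SQSTM1 at 446 to 475 CPM and TRIM16 at 190.6 to 204.5 CPM lie above all vehicle libraries with AT-0174, KEAP1 steps up with suspension, and NFE2L2, NFE2L1, CUL3 and MAFG overlap across groups.

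None of the small MAF genes passed the test. MAFG measured 29.7, 30.7 and 33.6 CPM attached, 30.3, 28.8 and 31.3 suspended with vehicle and 30.3, 33.01 and 31.5 with AT-0174, with overlap throughout (log2 fold change -0.06 in suspension, adjusted p = 0.518, and 0.07 with AT-0174, adjusted p = 0.788). MAFK read 43.1, 45.6 and 47.6 CPM attached, 43.4, 42.5 and 42.9 suspended with vehicle and 45.7, 46.0 and 44.7 with AT-0174. In CPM its AT-0174 libraries all lay above the suspended vehicle libraries but inside the attached range. In TPM all 3 groups of MAFK overlapped. Its log2 fold changes were -0.08 in suspension (edgeR, adjusted p = 0.191) and 0.08 with AT-0174 (adjusted p = 0.597). MAFG (chr17:81918270-81927735, minus strand) and MAFK (chr7:1530702-1543043, plus strand) encode 162 and 156 codons.

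MAFF (chr22:38200767-38216507, plus strand), the stress-inducible member of the trio, had the fewest counts of the 10 genes. It had 45 to 84 counts per library, that is 1.33, 1.25 and 1.37 CPM attached, 1.37, 1.63 and 1.73 suspended with vehicle and 1.51, 2.01 and 1.66 with AT-0174. The suspended vehicle libraries all lay above the attached ones, the closest pair at 1.369 and 1.365 CPM, and overlapped the AT-0174 libraries. The log2 fold change was 0.26 ± 0.18 in suspension (adjusted p = 0.342), 0.12 with AT-0174 (adjusted p = 0.91) and 0.39 between suspended AT-0174 and attached cells (adjusted p = 0.144).

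BACH1 (chr21:29194071-29630751, plus strand), which represses heme and iron genes at MAF sites, did not pass either. Its libraries stood at 12.7, 13.8 and 13.2 CPM attached, 14.4, 13.3 and 15.6 suspended with vehicle and 14.9, 14.2 and 13.9 with AT-0174. In CPM the AT-0174 libraries lay above the attached ones and the suspended vehicle libraries overlapped both groups. In TPM the suspended vehicle libraries (6.32 to 6.94) lay above the attached ones (5.25 to 5.61). The AT-0174 libraries (5.09 to 6.85 TPM) overlapped both. Over 17 alternative fits, counts rebuilt from TPM among them, the log2 fold change of BACH1 in suspension ran from 0.07 to 0.19 and none was called. The log2 fold change was 0.13 ± 0.07 in suspension (adjusted p = 0.204), 0.00 with AT-0174 (adjusted p = 0.997) and 0.12 for suspended AT-0174 against attached cells (adjusted p = 0.202). CPM values without overlap were found for 4, 3 and 5 of the 10 genes in the 3 contrasts, all higher. Of all tested genes 38.1, 15.4 and 39.5% did not overlap in either direction. Those without overlap and higher were 19.4, 7.75 and 20.4% of all tested genes.

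Around these 10 genes, other components of NRF2 control were looked up in lists fixed by role and written with earlier results known. No gene of the 7 lists of regulators passed the edgeR test with AT-0174, where 0.779% of all 15528 tested genes were called. Of their 58 tested genes, each counted once, 2 higher and 2 lower had an unadjusted p under 0.05, and DESeq2 and limma-voom called 0. Over all tested genes 1401 had an unadjusted p under 0.05 in the edgeR fit. With so few genes called, the absence of calls among 58 does not set these lists apart. For the 8 partners of the KEAP1-CUL3 ligase the log2 fold changes with AT-0174 ran from -0.02 (CAND1) to 0.03 (DCUN1D1), and for the 10 genes of other ligase arms that destroy NRF2 from -0.035 (CUL1) to 0.05 (CUL4A). The 9 genes listed as competitors of KEAP1-NRF2 binding ran from -0.16 (SESN2) to 0.08 (AMER1) in the same contrast. NFE2, NFE2L3 and BACH2, all under the filter, had at most 3, 2 and 10 counts in any library. The 5 NFE2L1 processing factors ran from -0.10 (SEL1L) to 0.01 (DDI2), the 10 coactivators and kinases from -0.43 (FYN, 7 to 20 counts per library) to 0.13 (PRKCD), and the 13 autophagy partners of SQSTM1 from -0.30 (OPTN) to 0.28 (GABARAPL1, also 7 to 20 counts).

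In forced suspension 21.2% of all tested genes were called. The share was 25% of the 8 ligase partners, 20% of the 10 genes of other arms and 33.3% of the 9 competitors. Of the ligase partners 2 rose, the RING subunit RBX1 (log2 fold change 0.18, adjusted p = 0.00701) and the cullin exchange factor CAND1 (0.14, adjusted p = 0.0199). Among the other ligase arms SYVN1, the ER ligase HRD1, fell by 0.14 (adjusted p = 0.0402) and DDB1 rose by 0.10 (adjusted p = 0.0441). The genes listed as competitors of KEAP1-NRF2 binding included 3 that rose by edgeR. They were the cell cycle inhibitor CDKN1A (0.36, adjusted p = 9.37e-05), the mitochondrial phosphatase PGAM5 (0.235, adjusted p = 0.0013) and the peptidase DPP3 (0.16, adjusted p = 0.00824).

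NFE2L1 processing was represented by NGLY1, the N-glycanase that edits NRF1, which rose by 0.32 on the log2 scale (adjusted p = 0.000391), and by the protease DDI2, which rose by 0.19 (adjusted p = 0.00631), while SYVN1, which is also on this list of 5, fell as given above. The kinase subunit CSNK2A1 rose by 0.12 (adjusted p = 0.019) and the nuclear receptor RXRA by 0.10 (adjusted p = 0.0266). Of the autophagy partners 3 rose, WDFY3 (0.22, adjusted p = 0.0141), GABARAPL2 (0.20, adjusted p = 0.0158) and ATG5 (0.15, adjusted p = 0.0482). Across these lists 20 to 60% of the tested genes were called in suspension, beside 21.2% of all genes, and the list at 60% had 5 genes.

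Between suspended AT-0174 cells and attached cells 24% of all tested genes were called, beside 37.5% of the ligase partners, 10% of the other ligase arms, 44.4% of the competitors, 60% of the NFE2L1 processing factors, 40% of the coactivators and kinases and 23.1% of the autophagy partners, lists of 5 to 13 genes. RBX1 (0.16), CAND1 (0.12) and DCUN1D1 (0.12) were the 3 ligase partners that rose, and SYVN1 fell by 0.135 among the 10 genes of other arms. CDKN1A (0.31), PGAM5 (0.235) and DPP3 (0.15) rose and the stress sensor SESN2 fell by 0.29 among the 9 competitors. NGLY1 (0.32), DDI2 (0.20), PRKCD (0.19), RXRA (0.14), CSNK2A1 (0.13), GABARAPL2 (0.21) and ATG7 (0.21) were higher, and CREBBP (-0.17) and OPTN (-0.69) were lower. All passed an adjusted p of 0.05 in the edgeR test.

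Many genes that NRF2 is known to switch on rose with AT-0174. Of 45 listed NRF2 targets 40 were tested, and with AT-0174 25 of them rose (62.5%, beside 0.779% of all genes called), none fell and 38 of 40 had a positive log2 fold change, with a median of 0.29 beside 0.00 for all tested genes. The smallest p-values belonged to the quinone reductase NQO1 (log2 fold change 0.79 ± 0.03, adjusted p = 1.1e-07), the ferritin heavy chain FTH1 (0.69 ± 0.03, adjusted p = 3.17e-07), the cystine transporter subunit SLC7A11 (0.65 ± 0.04, adjusted p = 2.5e-06) and the thioredoxin reductase TXNRD1 (0.56 ± 0.03, adjusted p = 2.5e-06). NQO1 averaged 739 ± 18.1 CPM attached, 736 ± 9.28 suspended with vehicle and 1277 ± 43.2 with AT-0174 (SD, n = 3 each). No target was called lower by edgeR with its filter, DESeq2 or limma-voom. At an unadjusted p under 0.05, 1 target was lower, and edgeR with no filter on low counts called 26 higher and 1 lower. The list was drawn up after these rises were known, so its count is not independent evidence of their direction. With counts rebuilt from TPM 14 targets rose. SQSTM1 and TRIM16, which are not on the list, are themselves known NRF2 targets.

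In suspension without drug the target list was split. Of the 40 tested targets 11 rose and 7 fell (45% called, beside 21.2% of all genes), with a median log2 fold change of 0.035. Leaving out attached replicate 3 reduced the 18 calls to 9, leaving out suspended vehicle replicate 2 reduced them to 11, and counts rebuilt from TPM gave 7. Calls over all genes went from 3297 to 1935, 1951 and 1712 in the same 3 settings. The multidrug transporter ABCC3 fell by 0.88 (adjusted p = 1.45e-07) and the heme oxygenase HMOX1 by 0.37 (adjusted p = 0.002), while SLC7A11 rose by 0.56 (adjusted p = 3.51e-06) and the biliverdin reductase BLVRB by 0.25 (adjusted p = 0.00446). Suspended AT-0174 cells against attached cells gave 30 higher and 2 lower (80% called, beside 24%), led by SLC7A11 (log2 fold change 1.215), NQO1 (0.79), FTH1 (0.57) and TXNRD1 (0.53). The median was 0.38.

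A list of 10 heme and iron genes drawn up for BACH1 shares 7 members with the target list. Repression by BACH1 was not tested for any of them. With AT-0174 7 of the 10 rose (70%, beside 0.779% of all genes called) and none fell. By edgeR the smallest p-values belonged to FTH1 and HMOX1 (log2 fold change 1.00, adjusted p = 2.5e-06). Next came the glutathione synthesis subunit GCLM (0.48, adjusted p = 7.45e-05) and the heme transporter SLC48A1 (0.37, adjusted p = 0.000209). Of those that rose only ALAS1 (0.28, adjusted p = 0.0119) was outside the target list, so the others repeat calls counted above. HMOX1 averaged 48.1 ± 3.70 CPM attached, 37.1 ± 1.28 suspended with vehicle and 74.2 ± 5.28 with AT-0174. In suspension 2 rose (BLVRB, and FTL by 0.12) and 3 fell (HMOX1, SLC48A1 by 0.17 and FTH1 by 0.12). That was 50% called, beside 21.2% of all genes, and each of these genes is on the target list too. In suspended AT-0174 against attached cells 9 of 10 rose (90%, beside 24% of all genes called), with FTH1, BLVRB, HMOX1 and GCLM first by p-value.

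Proteasome subunits, which NFE2L1 drives, did not pass the test with AT-0174 in any of 31 cases by edgeR, DESeq2 or limma-voom. By edgeR 2 had an unadjusted p under 0.05, both higher. Of all 15528 tested genes 0.779% were called by edgeR and 1401 had an unadjusted p under 0.05. The absence of calls therefore does not set the subunits apart. The log2 fold changes of the 31 subunits ran from -0.03 (PSMB5) to 0.12 (PSMD7), with a median of 0.04. In suspension 25.8% of the 31 were called, beside 21.2% of all genes. Of them 7 rose, among them PSMA2 (0.20, adjusted p = 0.0085), PSMB5 (0.17, adjusted p = 0.0153), PSMB3 (0.15, adjusted p = 0.0153) and PSMA7 (0.17, adjusted p = 0.0162), and PSMC5 fell by 0.12 (adjusted p = 0.0271). Between suspended AT-0174 and attached cells 15 rose and none fell (48.4% called, beside 24% of all genes), led by PSMA3 (0.196), PSMB6 (0.15), PSMB2 (0.17) and PSMA2 (0.20).

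**Figure D4:**
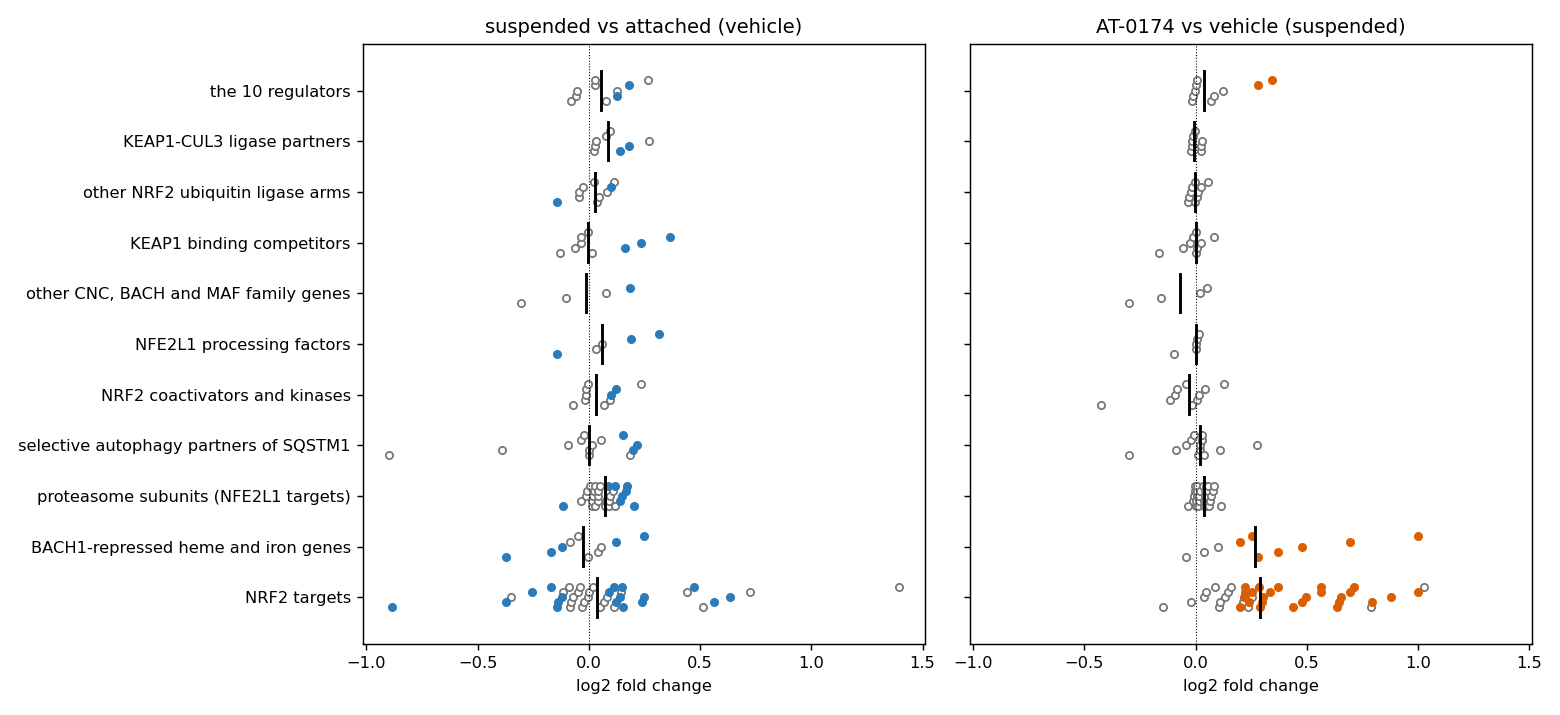
Log2 fold change of every tested gene of the 10 regulators and of 10 related lists, in suspended against attached cells (left) and with AT-0174 in suspended cells (right), filled where the adjusted p was under 0.05, with the list median as a black bar. On the right, the filled points are SQSTM1, TRIM16, 7 heme and iron genes and 25 NRF2 targets. Of the 7, all but ALAS1 are also among the 25. The medians of the other lists lie between -0.07 and 0.04.

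Likeness of pattern was described across the 9 libraries. For SQSTM1, the genes with the highest Pearson correlation of log2 CPM among 12525 genes with at least 50 normalised counts were TRIM16L (0.984), the transaldolase TALDO1 (0.982) and TRIM16 (0.98). For NFE2L2 they were LANCL2 (0.964), TLCD4 (0.957) and FNTB (0.92), and the nearest of the other regulators was CUL3 at 0.625, in place 580. The 9 points fall into 3 groups and share their libraries, so these values describe a common pattern and carry no p-value.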

How the data were processed

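Gene and transcript tables of 9 RNA-seq libraries were used. The authors ran nf-core/rnaseq on GRCh38 with an Ensembl annotation (Cutadapt 3.4 in Trim Galore 0.6.7, STAR 2.7.9a, Salmon 1.10.1) and deposited expected counts summed by gene and TPM per transcript, without pooling replicates. The labels and the study's methods name different library kits. Table columns were matched to samples through each sample's own transcript table.

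Counts were rounded and tested with edgeR 4.0.16 (R 4.3.3) in 1 quasi-likelihood fit of 3 groups, with TMM scaling (factors 0.973 to 1.02), filterByExpr, Benjamini-Hochberg adjustment over 15528 genes and a threshold of 0.05. CPM is the estimated count scaled to a common library total after TMM. The fit was tested on simulated data. Alternatives were limma 3.58.1 with voom, DESeq2 1.42.0 and its size factors, other filters, 6 libraries and a replicate block. Further ones were counts rebuilt from TPM, a threshold of 0.01, each library left out, and TRIM16 summed with TRIM16L. The study's methods name limma but not voom.

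The members and lists were chosen with earlier results of these data known. All 10 members were named with every library's value, and from other lists up to 4 called genes per contrast by smallest p, or the lowest and highest fold change where none was called, and the 3 genes most alike to NFE2L2 and SQSTM1. FTH1 and PSMC5 in suspension, the values of MRNIP and TRIM16L without a call, and the markers and family genes under the filter were named after their values were seen. Positions are from GENCODE 44. A planned comparison of protein sequences was not run. The values of 1 gene of the lists are not reported here. Replicates differed by more than sampling noise (mean chi-square per gene 3.1 to 17.76), so none was counted as a duplicate.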

Additional observations from a re-analysis of the deposited data

How the results depend on the processing

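Of 513 alternative values for the 30 fold changes of the 10 regulators, 470 kept their direction and side of the threshold, 6 lost the call and 37 turned sign, none of these 37 from a called value. KEAP1 in suspension and TRIM16 with AT-0174 kept their calls under every alternative (highest adjusted p 0.0179 and 0.0053). Where a result changed, the cause was not tested.

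Counts rebuilt from TPM left 1 of 10 regulators called in suspension and 1 with AT-0174, and 7 NRF2 targets called in suspension and 14 with AT-0174. Over all genes they gave 1712 calls in suspension, 35 with AT-0174 and 2061 for suspended AT-0174 against attached cells, beside 3297, 121 and 3724. The log2 fold changes that turned sign with them were 0.02 for NFE2L2, -0.07 for NFE2L1 and 0.01 for CUL3 with AT-0174, and -0.05 for MAFG and -0.04 for MAFK between suspended AT-0174 and attached cells.

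A threshold of 0.01 left 1 regulator and 8 NRF2 targets called in suspension, and 2 regulators and 18 targets with AT-0174. With AT-0174, DESeq2 called 239 genes and no filter 499. KEAP1 with AT-0174 was at 0.00 and turned sign with at least 10 counts in every library, as did BACH1 (0.00) with limma-voom and with no filter. MAFK between suspended AT-0174 and attached cells was at 0.00 and turned sign with DESeq2 size factors, DESeq2, at least 10 counts in every library and only the 6 libraries of the contrast.

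Leaving out each library gave 1 to 2 regulators and 9 to 18 NRF2 targets called in suspension. With AT-0174 it gave 2 regulators each time and 18 to 24 targets, beside 25 in the main fit. Over all genes it gave 1935 to 3260 calls in suspension, 63 to 128 with AT-0174 and 2239 to 3680 in the third contrast. In suspension the log2 fold change ran from -0.01 to 0.05 for NFE2L2 and from -0.01 to 0.06 for CUL3. With AT-0174 it ran from -0.04 to 0.01 for NFE2L2, -0.02 to 0.04 for NFE2L1, -0.01 to 0.02 for KEAP1 and -0.06 to 0.05 for BACH1. Between suspended AT-0174 and attached cells it ran from -0.02 to 0.04 for NFE2L2, -0.02 to 0.05 for CUL3, -0.02 to 0.07 for MAFG and -0.04 to 0.04 for MAFK.

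Same-numbered libraries did not deviate together (correlations of -0.082 to 0.093 over genes), so the numbers were not read as pairs. With the replicate block 2, 2 and 3 regulators were called in the 3 contrasts, and 18, 26 and 32 NRF2 targets. MAFF had the fewest counts of the 10 regulators (45 to 84 per library).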
